A study of Xenopus tropicalis with 12 samples.

Results

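Prometamorphosis, Nieuwkoop-Faber stage NF56, was compared with premetamorphosis, stage NF50, in the brain of Xenopus tropicalis tadpoles. The comparison takes 6 of the study's 12 libraries: NF56 replicates 1, 2 and 3, and NF50 replicates 1, 3 and 4. The other libraries are 3 each of NF62, the climax of metamorphosis, and NF66, its completion. All animals were wild type, came from the supplier NASCO, and carried no allele or treatment that the labels name. The dissected tissue was a middle region of the brain with the preoptic area, hypothalamus and thalamus. Replicates are called biological in the study's design. However, the number of animals pooled in a library, their sex and their age beyond the stage are not stated. P-values therefore measure only the spread between libraries, which the main fit shares over all 12. The libraries were made from total RNA, and the values are expected counts per gene model. The account concerns genes outside cell division and ribosomal proteins. Models of these classes were left out by name, and 11469 of the 19584 models tested had a name. Unnamed models, and genes such as rrm2.1 whose symbol the division list did not hold, therefore count as outside. Of 19276 models so counted, 1272 were higher and 1334 lower at NF56.

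Thyroid hormone drives metamorphosis in frogs. Between these stages the thyroid gland becomes active and plasma hormone begins to climb, and the hormone acts through nuclear receptors that switch from repressing to activating their target genes when they bind it. In the tadpole brain metamorphosis involves both proliferation of ventricular progenitors and differentiation of neurons. The hypothalamus matures as the upper control of the thyroid and interrenal glands.

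Library totals were 23967786, 20505366 and 12046529 expected counts in NF56 replicates 1, 2 and 3, and 20934082, 25482414 and 21997851 in NF50 replicates 1, 3 and 4. NF56 replicate 3 was therefore the shallowest. On the first principal component of log2 CPM (counts scaled to a common library total), with 38.7% of the variance, NF56 libraries lay at -23.2 to 17.3 and NF50 libraries at -72 to -39.9. On the second component, with 27.2%, the stages overlapped. There NF56 replicates 1, 2 and 3 lay at 18.4, -1.13 and 61.1, and NF50 replicates 1, 3 and 4 at 2.86, 38.6 and -8.55. Replicate 3 was the highest of its stage in both, and also at NF62 (14.6) and NF66 (15). Replicate 2 was the lowest of its stage at NF56, NF62 (-54.6) and NF66 (-62.8), and NF50 has no replicate 2. Of 68 fixed markers of the dissected and adjoining regions, 60 had a tested model. The hypothalamic regulators otp (155 and 186 CPM on average at NF56 and at NF50) and nkx2-1 (9.83 and 12 CPM) and the thalamic gene tcf7l2 (728 and 620 CPM) were present, while sim1 and rax, other hypothalamic regulators, averaged below 1 CPM at both stages. The midbrain marker en2 and genes of the pituitary such as gh1 (36 and 46.5 CPM) were also detected. NF50 replicate 4 differed from the other libraries in 33 models of short effective length (median 54 against 3118 for all models tested), 30 of them without a name. They took 3.64% of its counts and 36.7% of its TPM (transcript abundance per length), against 0.217 to 0.321% of counts and 3.73 to 4.97% of TPM in the NF56 libraries, and 0.245 to 0.468% and 3.83 to 6.76% in the other NF50 libraries. The rule that picked these models, at least 3 times the other NF50 libraries and 50 CPM, was set after seeing the data.

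Gene levels are given in CPM with a scaling factor per library (TMM), as mean ± SD over n = 3 libraries. Changes are log2 fold changes of NF56 over NF50 with their standard error after ±, both from the quasi-likelihood test of edgeR, and a gene is said to have risen or fallen where its Benjamini-Hochberg adjusted p over all 19584 models was below 0.05. Unless libraries are named, a gene said to have risen or fallen kept its call when any 1 of the 6 libraries was left out. Among all 19584 models 14.5% were called: 6.51% were higher, 7.96% were lower, and log2 fold changes had a median of -0.002. These shares are the background for the gene lists below. Of all models tested, called or not, 35.5% had stages whose libraries did not overlap. Genes past the threshold tend to have separate stages. Where a called gene's stages are said to be separate, this describes its levels and is no added support for the call. Of the models outside cell division and ribosomal proteins, 6.6% were higher and 6.92% lower, with a median log2 fold change of 0.38 among the higher and -0.59 among the lower, and 118 and 280 of them differed by at least 2-fold. Of the 308 division and ribosomal models tested, 3 were higher and 225 lower. With no scaling factor, 1831 models outside these classes rose and 969 fell. On unscaled log2(TPM + 1), 331 rose and 69 fell. The median of all models was then 0.08 and 0.32, so directions are relative to the bulk of genes. Values given below on unscaled TPM are to be read against that 0.32. The median of translation factors, for example, lay at -0.26 from the all-model median in the main fit and -0.20 on unscaled TPM. Leaving out 1 library gave 638 to 931 rises and 714 to 1237 falls outside division and ribosomes. Rises numbered 638 without NF50 replicate 4, 691 without NF50 replicate 1, 713 without NF56 replicate 1 and 831 without NF56 replicate 3. Falls numbered 714 without NF56 replicate 1, 732 without NF50 replicate 1 and 799 without NF56 replicate 3. Medians of lists within 0.1 of 0 turned sign in some of these fits and are not read as a direction. In whole tissue, fewer cells of a type and less RNA per cell cannot be told apart, which holds for each result below.

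Genes that respond to thyroid hormone had begun to change at NF56, but only some of them. Of their list 40% were called, against 14.5% of all models. The shares were 32% higher and 8% lower, against 6.51% and 7.96%. The rises include crym and nfix, which are given below under other lists that also hold them. Of 25 response genes of tadpole tissues that could be tested (of 33; 1 was under the filter, 1 shared a model and 6 had no named model), 8 rose, 2 fell and 15 did not pass, with a median of 0.24 (0.14 without NF50 replicate 4). The hormone receptors bind and induce klf9, which codes for a Krüppel-like transcription factor. It stood at 25.9, 21.2 and 32.3 CPM in the NF56 libraries and at 6.51, 6.74 and 5.08 CPM in the NF50 libraries. The stages did not overlap, and klf9 had the largest rise among named genes with separate groups and at least 5 CPM (2.10 ± 0.33, adjusted p = 0.0024). The receptor gene thrb, which its own product induces in tadpoles, was at 19, 17 and 19 CPM at NF56 and 9.14, 11.2 and 8.75 CPM at NF50 (0.91 ± 0.15, adjusted p = 0.0033). Each NF56 library was above every NF50 library for both genes. By contrast thibz, a hormone-induced leucine zipper factor, was at 0.531, 1.36 and 0.397 CPM at NF56 and 0.745, 0.078 and 0.782 CPM at NF50 (0.63 ± 0.59, adjusted p = 0.51), so it was close to undetected in all 6 libraries. The deiodinase gene dio3, whose enzyme inactivates the hormone, was at 2.98, 3.59 and 3.5 CPM at NF56 and 3.03, 3.12 and 2.05 CPM at NF50, and the stages overlapped (0.28 ± 0.19, adjusted p = 0.35). At NF62 and NF66 these genes averaged 52.5 and 7.08 CPM for thibz and 58.6 and 36.4 CPM for dio3. In the response list the calls of adamts9, of which a second, weaker model did not pass (0.20), were lost without NF56 replicate 2 or any 1 NF50 library. Those of mmp11 were lost without NF56 replicate 3 or NF50 replicate 1 or 3, and that of shh without NF56 replicate 1 or 2 or NF50 replicate 1 or 3. That of plxna1, a semaphorin receptor gene (0.24 ± 0.07), held only without NF56 replicate 2 among these fits. The fall of rhebl1 (-2.23 ± 0.61), at 0.166 and 0.762 CPM on average, was lost without any 1 library.

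Genes that handle the hormone inside and at the surface of cells moved in both directions. Their list was 20% higher and 15% lower, against 6.51% and 7.96% of all models. Of 20 tested members of the list of receptors, deiodinases, transporters and cofactors (of 24; 2 under the filter, 2 without a model), 4 rose and 3 fell, with a median of 0.13, which was 0.01 without NF56 replicate 3, 0.03 without NF50 replicate 3, and 0.08 without NF50 replicate 1 or 4. The gene crym, which codes for a cytosolic protein that binds the hormone, was at 12.5, 12.7 and 9.93 CPM at NF56 and 4.92, 4.6 and 4.25 CPM at NF50 (1.35 ± 0.13, adjusted p = 0.00025). The organic anion transporter gene slco4a1 was at 9.93, 10.5 and 7.71 CPM at NF56 and 4.02, 3.43 and 3.37 CPM at NF50 (1.38 ± 0.18, adjusted p = 0.00095). The groups were separate for both genes. The name slco4a1 sits on 4 models, and the others had log2 fold changes of 0.40 to 0.94 that did not pass. The falls were those of slc7a5 (-1.40 ± 0.25) and slc7a8 (-0.53 ± 0.06), light chains of carriers for large neutral amino acids that also carry thyroid hormone, and of their heavy chain gene slc3a2 (-1.06 ± 0.11). In NF50 replicates 1, 3 and 4 slc7a5 was at 284, 539 and 223 CPM and slc3a2 at 565, 677 and 473 CPM. NF56 averages were 132.5 and 274 CPM. Without NF50 replicate 3, the highest library for both, the log2 fold changes were -0.96 and -0.94.

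All 4 nuclear factor I genes, which code for transcription factors that promote glial and late neuronal differentiation in vertebrate brains, had higher levels at NF56, and 3 of them passed. For nfix the libraries read 135.7, 130.3 and 133 CPM at NF56 and 51.9, 45.8 and 52.5 CPM at NF50, a rise of 1.41 ± 0.12 (adjusted p = 0.00012). For nfic they read 35.3, 34.3 and 32.3 CPM at NF56 and 21.5, 19.5 and 17.7 CPM at NF50, a rise of 0.80 ± 0.07 (adjusted p = 0.0002). The levels of nfia were 74.7, 69.2 and 76.1 CPM at NF56 and 47.7, 45.4 and 48.3 CPM at NF50, a rise of 0.64 ± 0.07 (adjusted p = 0.00034). Within each stage the 3 libraries lay close together, and no library of either stage overlapped the other. The remaining member nfib had levels of 86.9, 80.5 and 98.4 CPM at NF56 and 63.2, 55 and 63.8 CPM at NF50; its libraries were also separate, but it did not pass (0.55 ± 0.19, adjusted p = 0.081). It passed in DESeq2 (adjusted p = 0.039). It also passed in edgeR with the 6 libraries alone (adjusted p = 0.012) and with the replicate block (adjusted p = 0.023), which gives NF50 replicate 4 its own term. It did not pass in any other setting tried. The adjusted p in edgeR was 0.065 without a scaling factor, 0.12 without a filter, and 0.1 to 0.23 with any 1 of the 6 libraries left out. At NF62 and NF66 nfix averaged 216 and 208 CPM and nfic 98 and 73.3 CPM. The levels of nfib were then 102 ± 15 and 90.3 ± 28.2 CPM, in libraries that enter the main fit but not that of the 6 alone.

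**Figure D1:**
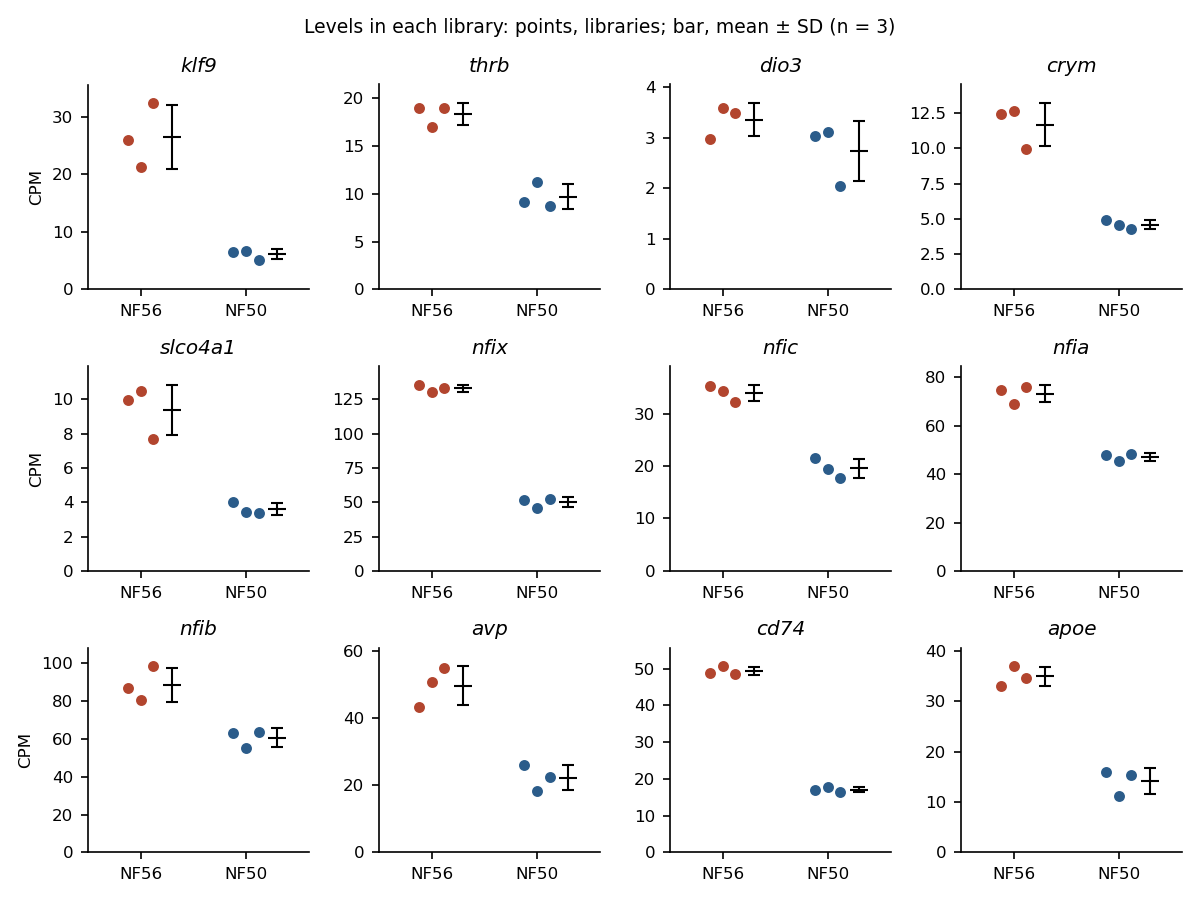
Level in CPM (vertical axes, each from 0) of 12 genes in the NF56 libraries (left, red) and the NF50 libraries (right, blue), with mean ± SD, n = 3 per stage. The libraries of the stages are separate for all but dio3, whose NF56 libraries at 2.98 to 3.59 CPM overlap the NF50 libraries at 2.05 to 3.12 CPM.

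Regulators of developmental timing were mostly not called, though the share called was 23.1%, against 14.5% of all models. Of 13 tested genes of heterochronic and age-related programmes, 1 rose and 2 fell, with a median of -0.18 (0.14 on unscaled TPM). The RNA-binding protein gene igf2bp3, typical of embryonic and early neural tissue, was at 39.7, 47.2 and 31.9 CPM at NF56 and 107, 86.2 and 108.5 CPM at NF50. All NF56 libraries were below all NF50 libraries (-1.34 ± 0.18, adjusted p = 0.001), and at NF62 and NF66 it averaged 13.3 and 17.5 CPM. The SoxC gene sox12 rose (0.70 ± 0.11). The fall of e2f5 (-0.64 ± 0.14) was lost without NF56 replicate 3. The architectural factor gene hmga2 was at 1.18 ± 0.425 and 0.857 ± 0.402 CPM (0.41 ± 0.38, adjusted p = 0.52), and lin28a and lin28b, RNA-binding regulators of let-7 processing, were under the filter on low counts.

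Genes that cells switch on when amino acids run short were lower at NF56, and this was the list with the most negative median. Of 25 tested genes of the amino acid starvation response (of 35; 5 shared a model, 5 had no model), 20 fell and 0 rose, with a median of -1.06 (-0.63 on unscaled TPM). Serine synthesis, asparagine synthesis, one-carbon metabolism and amino acid import were all represented among the falls. The asparagine synthetase gene asns was at 15.6, 13.9 and 12.8 CPM at NF56 and 42, 79.6 and 29.3 CPM at NF50 (-1.83 ± 0.28, adjusted p = 0.0021). Its NF56 libraries lay together, whereas NF50 replicate 3 stood well above the other NF50 libraries. The serine synthesis gene psph was at 46.1, 35.9 and 28.5 CPM at NF56 and 117, 207 and 87.7 CPM at NF50 (-1.89 ± 0.27); a second, weaker model of that name had a log2 fold change of 0.03. The cationic amino acid transporter gene slc7a3 was at 41.7, 36.3 and 33.6 CPM at NF56 and 117, 189.9 and 76.3 CPM at NF50 (-1.78 ± 0.25). The glutamine transporter gene slc38a5, from the transporter list, was at 27.8, 25.6 and 23.8 CPM at NF56 and 78.4, 87.4 and 59.1 CPM at NF50 (-1.54 ± 0.14). The transcription factor gene atf5.2, a relative of the main regulator of this response, was at 63.5, 48.8 and 44 CPM at NF56 and 172, 288.5 and 140.7 CPM at NF50 (-1.94 ± 0.23). In each of these 5 genes NF50 replicate 3 was the highest library and every NF56 library was below every NF50 library. For atf5.2, named as a large fall, separate stages were a condition of the choice.

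That library carried the same order through the list. NF50 replicate 3 was the highest NF50 library for 23 of the 25 genes, against 39.8% of all models tested. The summed level of the list was 1466 to 1590 CPM in the NF56 libraries, and 2877, 4054 and 2174 CPM in NF50 replicates 1, 3 and 4. Without NF50 replicate 3, 16 of the 25 still fell and the median was -0.82, and the log2 fold change was -1.35 for asns, -1.49 for psph, -1.40 for slc7a3, -1.60 for atf5.2 and -0.96 for slc7a5. Without NF56 replicate 2 or 3 the number that fell was 13. The call of chac1, whose product degrades glutathione under stress, rested on the libraries used: it was at 2.45, 0.729 and 1.43 CPM at NF56 and 11.5, 22.1 and 0.782 CPM at NF50 (-2.88 ± 0.86), with NF50 replicate 4 inside the NF56 range. That call was lost without any 1 NF56 library and without NF50 replicate 1 or 3. The fall of ddit4 (-0.87 ± 0.24) was lost in the same 5 fits. Named after their values were seen, further falls were those of psat1 (-1.41 ± 0.20) and phgdh (-1.09 ± 0.21) of serine synthesis, mthfd2 (-1.01 ± 0.15) of mitochondrial folate metabolism and the amino acid exchanger gene slc1a5 (-1.33 ± 0.22). At NF62 and NF66 asns averaged 11.8 and 10.4 CPM and psph 47.3 and 42.4 CPM. The part of this library in the differences was not tested beyond leaving it out.

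The enzymes that charge transfer RNAs with amino acids showed the same picture. Of 22 tested aminoacyl-tRNA synthetase genes (of 41; 1 shared a model, 18 had no model), 15 fell and 0 rose, with a median of -0.67 (-0.25 on unscaled TPM). The threonyl enzyme gene tars was at 43.4, 33.1 and 31 CPM at NF56 and 85.2, 136 and 64.2 CPM at NF50 (-1.41 ± 0.22). The methionyl enzyme gene mars was at 38.2, 37.6 and 35.6 CPM at NF56 and 81.7, 149 and 60.6 CPM at NF50 (-1.39 ± 0.25). The alanyl enzyme gene aars was at 129, 114.5 and 100.1 CPM at NF56 and 253, 323 and 217 CPM at NF50 (-1.21 ± 0.13), and vars, for valine, fell by 1.11 ± 0.18. All 4 had separate groups with NF50 replicate 3 highest, as in 19 of the 22 genes. Without that library 15 genes fell, with a median of -0.49, and mars had a log2 fold change of -0.96.

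**Figure D2:**
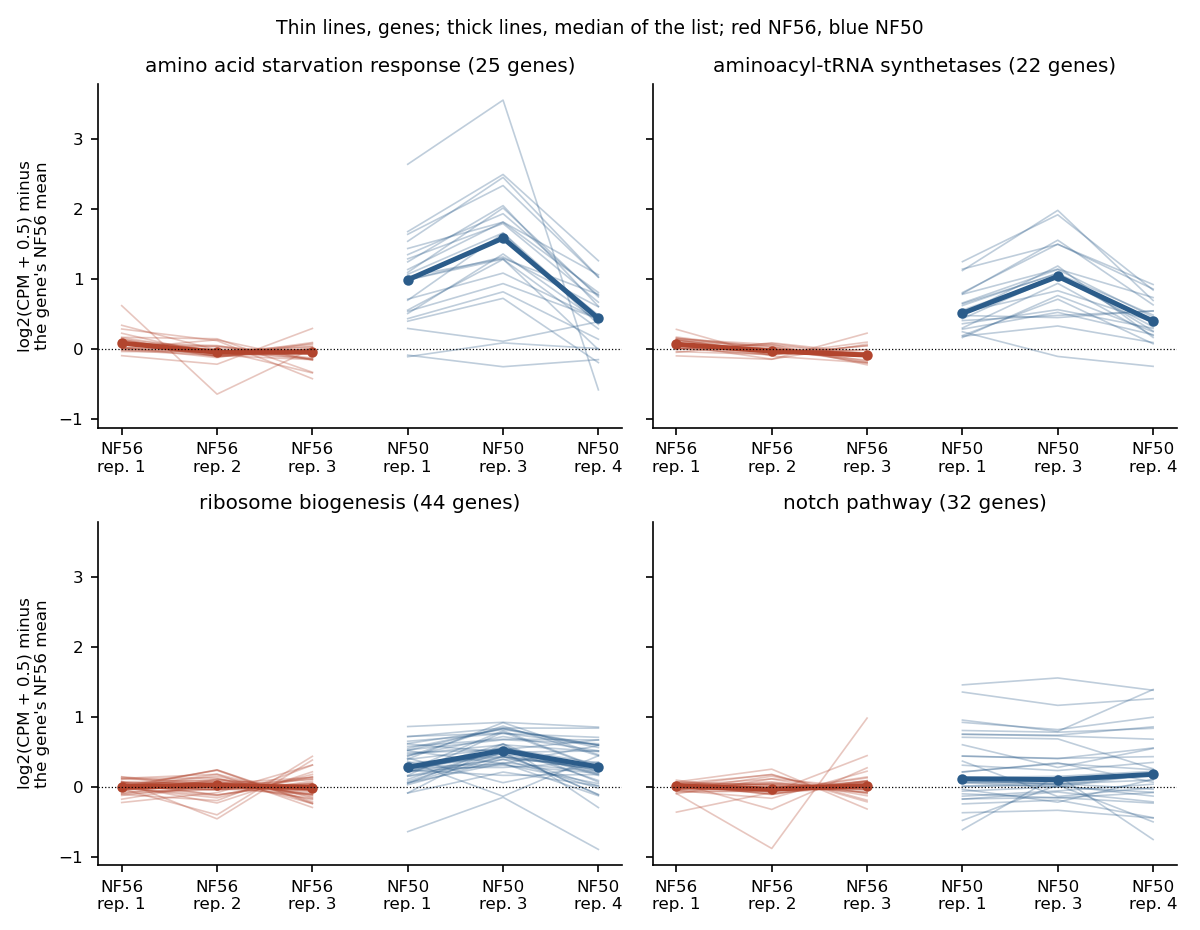
Level of each gene as log2(CPM + 0.5) minus the gene's own NF56 mean, in NF56 replicates 1, 2 and 3 (red, left) and NF50 replicates 1, 3 and 4 (blue, right). Thin lines join a gene's libraries, which have no order, and thick lines join the list medians, which peak at NF50 replicate 3 for amino acid starvation genes, tRNA synthetases and ribosome biogenesis; in the Notch pathway, whose list median is -0.09 in the fit and 0.28 on unscaled TPM, 10 of 32 genes fell.

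Other parts of the protein synthesis machinery were lower as well. Of 39 tested translation factors (of 50; 5 shared a model, 6 had none), 20 fell and 0 rose, with a median of -0.26 (0.12 on unscaled TPM). The elongation factor gene eef1b2 was at 194, 202 and 179 CPM at NF56 and 346, 319 and 365 CPM at NF50 (-0.84 ± 0.09), and eif2s1, a subunit of the initiation factor that delivers the first tRNA, fell by 0.66 ± 0.12. The largest fall was that of eef1a1o, an elongation factor gene named for its oocyte form, at 2.98, 3.2 and 3.97 CPM at NF56 and 13.8, 16.2 and 16.8 CPM at NF50 (-2.21 ± 0.21). No NF56 library reached any NF50 library in these genes. Of 44 tested ribosome biogenesis genes (of 64; 6 shared a model, 14 had none), 21 fell and 0 rose, with a median of -0.33 (0.06 on unscaled TPM). The nucleolar protein genes nop56 (44.6 ± 2.89 and 82.3 ± 2.17 CPM, -0.88 ± 0.10), imp4 (-0.82 ± 0.15), brix1 (-0.73 ± 0.13) and gar1 (-0.69 ± 0.13) gave the largest of these falls. NF50 replicate 3 was the highest NF50 library for 37 of the 44. Leaving out 1 library, 13 to 18 translation factors and 14 to 18 ribosome biogenesis genes fell; the fewest came without NF56 replicate 3 or NF50 replicate 1 for the first list and without NF56 replicate 1 for the second.

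Fewer genes of protein folding and degradation were called, at 31.4% of chaperone and 20.7% of proteasome genes, against 14.5% of all models. Of 35 tested heat shock and chaperone genes 1 rose and 10 fell, with a median of -0.15 (0.23 on unscaled TPM), and 6 of the falls were subunits of the cytosolic chaperonin TRiC, from -0.33 to -0.20. Those of tcp1, cct2 and cct6a held in each fit with 1 library left out, that of cct7 was lost without NF56 replicate 2, and those of cct5 and cct8 held in 1 of the 6 fits each. The mitochondrial chaperonin gene hspd1 (-0.34 ± 0.06), named after its value was seen, also fell. The endoplasmic reticulum genes pdia4 (0.67 ± 0.17) and xbp1 (-0.51 ± 0.11) had opposite signs, and their calls were lost without NF56 replicate 3. That of pdia4 was lost also without NF56 replicate 1 or NF50 replicate 1 or 4. Of 29 tested proteasome genes 0 rose and 6 fell, with a median of -0.14 (0.24 on unscaled TPM), the largest fall being that of psmd13 (-0.39 ± 0.07; 0.00 on unscaled TPM). Only 2 proteasome genes were called without NF56 replicate 2 or NF50 replicate 1, and 5 chaperone genes fell without NF56 replicate 2 or 3.

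Among energy metabolism genes, the falls of oxidative phosphorylation genes had the largest count. Of 43 tested nuclear genes of oxidative phosphorylation (of 80; 1 under the filter, 13 in shared models, 23 without a model), 13 fell and 0 rose, with a median of -0.26 (0.12 on unscaled TPM). The cytochrome c gene cycs was at 44.7, 42.6 and 35.8 CPM at NF56 and 80.9, 78.6 and 75.8 CPM at NF50 (-0.93 ± 0.09, adjusted p = 0.0002). Its libraries were far apart, but the next largest fall, that of the ATP synthase subunit gene atp5g3, was -0.42 ± 0.07. Only 4 to 6 of these genes fell without NF56 replicate 1 or 3 or NF50 replicate 1 or 4. Of 27 tested glycolysis and lactate genes 5 rose and 2 fell, with a median of 0.07. The monocarboxylate transporter gene slc16a7, which serves lactate and pyruvate uptake, rose to 50.6 ± 2.36 CPM at NF56, against 34.5 ± 0.675 CPM at NF50 (0.56 ± 0.05). A second, weak model of that name did not pass (-0.04). The glucose phosphate isomerase gene gpi rose by 0.34 ± 0.06. Without NF56 replicate 3 or NF50 replicate 1 or 4, 2 glycolysis genes rose. Of 25 tested fatty acid genes 3 rose and 2 fell, with a median of -0.04 (0.34 on unscaled TPM). The desaturase gene scd was at 604, 556 and 550.2 CPM at NF56 and 446.5, 462 and 443 CPM at NF50 (0.34 ± 0.05), and the trifunctional protein gene hadha, of fatty acid oxidation, fell by 0.32 ± 0.06 (0.07 on unscaled TPM). Both had separate groups. Of 20 tested cholesterol synthesis genes 2 rose and 1 fell (15% called, against 14.5% of all models), with a median of 0.22. The 2 rises, hmgcs1 (0.54 ± 0.16) and insig1 (0.44 ± 0.11), lost their calls without NF56 replicate 1 or 2 or any 1 NF50 library, and hmgcs1 also without NF56 replicate 3.

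Many progenitor genes were lower at NF56. Of 48 tested genes of radial glia and neural progenitors (of 66; 2 under the filter, 16 without a model), 21 fell and 3 rose, with a median of -0.29 (0.07 on unscaled TPM). The receptor gene fgfr4 was at 9.44, 12 and 13.3 CPM at NF56 and 26.3, 27.2 and 25.7 CPM at NF50 (-1.20 ± 0.13). The fatty acid binding protein gene fabp7, a radial glia marker, was at 331, 316 and 296 CPM at NF56 and 459, 471 and 454 CPM at NF50 (-0.55 ± 0.06). All NF56 libraries were below all NF50 libraries for both. Named after their values were seen, the intermediate filament gene vim (195 ± 4.96 and 375 ± 8.77 CPM, -0.94 ± 0.05), the progenitor factor gene sox3 (-0.97 ± 0.07) and the RNA-binding protein gene msi1 (-0.86 ± 0.09) fell too. The call of the glutamine synthetase gene glul (-1.22 ± 0.34) was lost without any 1 of the 6 libraries. In the opposite direction, apoe, which codes for the main lipid carrier of the brain, was at 33.1, 37 and 34.7 CPM at NF56 and 15.9, 11.3 and 15.3 CPM at NF50. The groups were separate (1.30 ± 0.15, adjusted p = 0.00045). The list had 14 to 17 falls with 1 library left out, fewest without NF50 replicate 1.

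Notch signalling keeps neighbouring progenitors undifferentiated through Delta ligands and Hes repressors. Of 32 tested genes of the pathway (of 47; 1 under the filter, 2 in shared models, 12 without a model), 10 fell and 1 rose, with a median of -0.09 (0.28 on unscaled TPM). The counts of 10 and 1 were the same without any 1 of the 6 libraries. The ligand gene dlc was at 13.1, 13.5 and 12.6 CPM at NF56 and 34.2, 29.9 and 32 CPM at NF50 (-1.29 ± 0.10, adjusted p = 7.3e-05). The repressor gene hes5.1 was at 25.4, 24.1 and 25 CPM at NF56 and 47.4, 44.1 and 49.9 CPM at NF50 (-0.92 ± 0.12), its neighbour hes5.2 fell by 0.82 ± 0.11, and hes3.3 fell by 1.56 ± 0.17. In dlc and hes5.1 the stages lay apart by far more than the libraries of either stage. Named after their values were seen, the receptor gene notch1 (-0.73 ± 0.09) and the ligand genes dll1 (-0.79 ± 0.09) and jag1 (-0.47 ± 0.07) fell. The 1 rise was that of dner (0.39 ± 0.07), which codes for a neuronal transmembrane protein described as a Notch ligand.

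Secreted growth factor pathways also had more falls than rises, hedgehog genes among them. BMP, TGF-beta, hedgehog and FGF genes were 5.19% higher and 24.7% lower, against 6.51% and 7.96% of all models. Of 77 tested genes of the BMP, TGF-beta, hedgehog and FGF pathways (of 110; 3 under the filter, 3 in shared models, 27 without a model), 19 fell and 4 rose, with a median of -0.10 (0.22 on unscaled TPM). The hedgehog-binding inhibitor gene hhip was at 2.66, 2.38 and 4.77 CPM at NF56 and 7.15, 9.04 and 7.23 CPM at NF50 (-1.28 ± 0.23). The ligand gene shh was at 3.06, 3.25 and 3.97 CPM at NF56 and 7.45, 7.21 and 4.84 CPM at NF50 (-0.93 ± 0.24), with NF50 replicate 4 nearest to the NF56 libraries and the losses of its call given above. Named after their values were seen, the signal transducer gene smo (-0.63 ± 0.11), the effector gene gli3 (-0.56 ± 0.10) and the receptor gene ptch1 (-0.39 ± 0.08) fell, as did fgfr1 (-0.55 ± 0.07). The cytokine gene tgfb1 was at 2.19 ± 0.0513 and 4.24 ± 0.579 CPM (-0.95 ± 0.17). The number of falls in the list was 10 to 17 with 1 library left out, 10 without NF56 replicate 1 and 11 without NF50 replicate 1. Of 53 tested Wnt genes 4 rose and 8 fell (7.55% and 15.1%), with a median of -0.11 (0.16 on unscaled TPM). The falls were led by the receptor genes fzd2 (10.9 ± 0.0321 and 18.5 ± 0.572 CPM, -0.77 ± 0.13) and lrp5 (-0.70 ± 0.13). Only 3 Wnt genes fell without NF50 replicate 1, 4 without NF56 replicate 2 and 5 without NF56 replicate 1. Of 25 tested retinoic acid genes 1 rose and 4 fell (4% and 16%), with a median of -0.11 (0.17 on unscaled TPM). The retinal reductase gene dhrs3 (-0.78 ± 0.09) and the retinol dehydrogenase gene rdh10 (-0.66 ± 0.11) fell, and the calls of the synthesis gene aldh1a2 (-0.61 ± 0.15) and of meis3 (-0.53 ± 0.13) were both lost without NF56 replicate 1 or 2 or NF50 replicate 1. That of aldh1a2 was lost also without NF50 replicate 4, and that of meis3 without NF56 replicate 3.

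Some genes of newly formed neurons rose at NF56, but most of their list was not called. The share called was 17.6%, against 14.5% of all models. Of 51 tested genes of immature neurons and neurogenesis, 7 rose and 2 fell, with a median of -0.02 (0.06 without a scaling factor and 0.35 on unscaled TPM). The microtubule protein gene dcx, of migrating young neurons, was at 846, 800.3 and 872 CPM at NF56 and 553.5, 567 and 567 CPM at NF50 (0.58 ± 0.07, adjusted p = 0.00045). The neuronal zinc finger gene myt1l was at 192, 171 and 219.5 CPM at NF56 and 121.5, 145 and 116 CPM at NF50 (0.60 ± 0.11). The stages were separate for both. The stathmin gene stmn1 was at 565, 552 and 466 CPM at NF56 and 370.5, 309 and 387 CPM at NF50 (0.57 ± 0.14), and its call was lost without NF56 replicate 1 or 2 or NF50 replicate 1 or 3. The growth cone gene gap43 (909 ± 81 and 596 ± 35.4 CPM, 0.61 ± 0.10), from the axon list, and stmn4 (0.53 ± 0.11) rose; both were named after their values were seen. The stress gene gadd45g, which is also used in neurogenesis, fell by 0.80 ± 0.16. Without NF56 replicate 1 or NF50 replicate 1 the number of rises in the list was 3 and 4.

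Axon guidance genes moved both ways, with 20.3% higher and 10.1% lower, against 6.51% and 7.96% of all models. Of 69 tested (of 86; 1 under the filter, 2 in shared models, 14 without a model), 14 rose and 7 fell, with a median of 0.09. The netrin receptor gene unc5d was at 129, 118 and 153.5 CPM at NF56 and 86.1, 93.2 and 81 CPM at NF50 (0.62 ± 0.13), with a call lost without NF50 replicate 4. The collapsin response gene dpysl5 (0.65 ± 0.15) lost its call without NF56 replicate 1 or 3 or NF50 replicate 1 or 4. The netrin gene ntn1, a midline attractant, was at 17.6, 15.6 and 18.4 CPM at NF56 and 33.9, 32.8 and 28.5 CPM at NF50 (-0.89 ± 0.14), and a second model of that name fell by 0.47. The groups of unc5d and ntn1 did not overlap. The fall of sema3b (-0.93 ± 0.26) was lost without any 1 of the 6 libraries. Leaving out 1 library gave 7 to 14 rises and 1 to 6 falls in the list; only 1 fell without NF56 replicate 1 or NF50 replicate 1.

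Some synaptic and channel genes rose by small amounts, and most were not called. The share higher was 27.9% of vesicle genes and 23.7% of adhesion genes, against 6.51% of all models. Of 61 tested genes of synaptic vesicles and release (of 80), 17 rose and 0 fell, with a median of 0.16, and 14 of 59 tested synaptic adhesion and postsynaptic genes rose and 1 fell, with a median of 0.21. The vesicle count moved with the libraries used, at 4, 5, 5, 8, 11 and 11 rises without NF50 replicate 4, NF50 replicate 1, NF56 replicate 1, NF56 replicate 3, NF56 replicate 2 and NF50 replicate 3. For adhesion genes 7 or 8 rose without any 1 library other than NF50 replicate 3, where 12 rose. Among the adhesion genes, slitrk6 was at 3.39, 3.64 and 5.08 CPM at NF56 and 1.89, 1.99 and 2.15 CPM at NF50 (0.99 ± 0.22). The calcium buffer gene calb1 was at 42.5, 40.4 and 40 CPM at NF56 and 28.7, 29.5 and 28.2 CPM at NF50 (0.51 ± 0.10), and the contactin-associated gene cntnap4 rose by 0.40 ± 0.05. No library of one stage fell in the range of the other. Among vesicle genes the synuclein gene snca had the largest difference of the named members (0.96 ± 0.25), and its call was lost without NF56 replicate 1 or 3 or NF50 replicate 1 or 4. The synapsin gene syn2 (345 ± 12.4 and 253 ± 5.29 CPM, 0.45 ± 0.05) and the synaptotagmin gene syt4 (0.42 ± 0.05), named after their values were seen, rose.

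Of 83 tested voltage-gated channel genes (of 109), 15 rose and 4 fell, with a median of 0.17 (0.09 without NF56 replicate 3). The pacemaker channel gene hcn3 was at 180.3, 184 and 168 CPM at NF56 and 138.5, 132 and 140.4 CPM at NF50 (0.38 ± 0.06), and the background potassium channel genes kcnk10 (0.38 ± 0.06) and kcnk5 (-0.83 ± 0.15) moved in opposite directions. Of the list, 18.1% were higher and 4.82% lower, against 6.51% and 7.96% of all models. The number of rises was 9 without NF50 replicate 4. Of 37 tested transmitter-gated channels 2 rose and 1 fell, with a median of 0.23. The share called, 8.11%, was below the 14.5% of all models. The GABA receptor subunit gene gabra3 was at 282, 272.5 and 298 CPM at NF56 and 185, 196 and 171 CPM at NF50 (0.63 ± 0.07). Of 26 tested genes of transmitter synthesis and transport 3 rose and 4 fell, with a median of -0.13 (0.22 on unscaled TPM). The neuronal glutamate transporter gene slc1a1 rose (115 ± 8.01 and 73.2 ± 2.33 CPM, 0.65 ± 0.07), and comt, whose enzyme degrades catecholamines, fell (-0.62 ± 0.12). The call of th, of the rate-limiting enzyme of catecholamine synthesis (-0.58 ± 0.15), was lost without NF56 replicate 1 or 3 or NF50 replicate 1 or 4.

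Most hypothalamic peptide genes were not called, though the share called was 21.4%, against 14.5% of all models. Of the list, 3.57% were higher and 17.9% lower, against 6.51% and 7.96% of all models. Of 28 tested neuropeptide and secretory genes (of 53; 25 without a named model), 1 rose and 5 fell, with a median of -0.04 (0.04 without a scaling factor and 0.33 on unscaled TPM). The rise was that of avp, which encodes the precursor of the antidiuretic peptide vasotocin, at 43.4, 50.6 and 54.8 CPM at NF56 and 25.9, 18.4 and 22.5 CPM at NF50. The stages did not overlap (1.16 ± 0.24, adjusted p = 0.0087), and at NF62 and NF66 avp averaged 146 and 143 CPM. The prohormone convertase gene pcsk1 fell to 115 ± 8.14 CPM at NF56, against 159 ± 4.95 CPM at NF50 (-0.47 ± 0.07). The calls of cartpt (-0.91 ± 0.20) and crhbp (-0.62 ± 0.17), of a satiety peptide and of the binding protein for corticotropin-releasing hormone, were lost without NF56 replicate 1 or 3, and that of crhbp also without NF50 replicate 1 or 3. Among 60 tested peptide and metabotropic receptor genes 9 rose and 1 fell, with a median of 0.17. The share called was 16.7%, near that of all models, with 15% higher and 1.67% lower. Only 2 to 6 rose with 1 library left out, fewest without NF50 replicate 4. The metabotropic glutamate receptor gene grm3 was at 59.1, 52.6 and 62.5 CPM at NF56 and 40.9, 38.9 and 42.6 CPM at NF50 (0.51 ± 0.09). The leptin receptor gene lepr (3.34 ± 0.155 and 5.82 ± 0.829 CPM, -0.80 ± 0.20) kept its call only without NF50 replicate 4 among the fits with 1 library left out.

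Among 60 tested regional markers 4 rose and 7 fell, with a median of -0.06 (0.03 without a scaling factor and 0.24 on unscaled TPM). Their shares were 6.67% higher and 11.7% lower, against 6.51% and 7.96% of all models. The engrailed gene en2, of the midbrain and hindbrain border, was at 76.2, 62.1 and 72.2 CPM at NF56 and 46.6, 44.9 and 40.7 CPM at NF50 (0.67 ± 0.13), and the forebrain and midbrain gene otx1 was at 28.5, 30.1 and 25 CPM at NF56 and 48.3, 38.9 and 42.9 CPM at NF50 (-0.63 ± 0.13). Its paralog otx2 (-0.56 ± 0.08) and the mammillary gene foxb1 (-0.56 ± 0.11), named after their values were seen, also fell. Whether the dissected borders differed between the stages was not tested. Only 2 markers rose without NF56 replicate 1 or 3 or NF50 replicate 1 or 4, and 4 fell without NF56 replicate 1 or NF50 replicate 1 or 4.

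Immune genes were called about as often as all models (14.8% against 14.5%), in both directions, with cd74 among the largest rises. Of the list, 9.26% were higher and 5.56% lower, against 6.51% and 7.96% of all models. Of 54 tested genes of microglia, antigen presentation and complement (of 87; 11 under the filter, 2 in shared models, 20 without a model), 5 rose and 3 fell, with a median of 0.24. The invariant chain gene cd74, of antigen presentation, was at 48.8, 50.7 and 48.6 CPM at NF56 and 17, 17.7 and 16.4 CPM at NF50 (1.53 ± 0.30, adjusted p = 0.0067). The lysosomal macrophage gene cd68 was at 13.3, 12.6 and 11.4 CPM at NF56 and 7.75, 7.25 and 6.94 CPM at NF50 (0.77 ± 0.13), and the complement gene c1qb, named after its value was seen, rose by 0.71 ± 0.13. Both stages were tightly grouped for cd74, whereas at NF62 and NF66 it was at 34.6 ± 18.6 and 33.6 ± 7.63 CPM. The falls were those of tgfb1, given above, of the antigen peptide transporter gene tap2 (-0.63 ± 0.16) and of the flagellin receptor gene tlr5 (-1.02 ± 0.30), the last at 0.753 and 1.53 CPM on average. The call of tap2 was lost without NF56 replicate 1 or 3 or NF50 replicate 1 or 4, and that of tlr5 held only without NF50 replicate 1 among the fits with 1 library left out. The summed level of the list was 639 to 663 CPM in the NF56 libraries and 533 to 549 CPM in the NF50 libraries. Outside the list, chosen as large rises and not as a group, the interferon-induced gene ifit5 was at 30.9, 28.1 and 30 CPM at NF56 and 14.4, 14.8 and 12.7 CPM at NF50 (1.08 ± 0.17), and znfx1.2, of a helicase with antiviral activity in mammals, rose by 1.31 ± 0.16. The viral RNA sensor gene ifih1 sits on 3 models, with log2 fold changes of 1.15, 0.44 and 0.35; the call of the first was lost without NF56 replicate 1 or 3 or NF50 replicate 1 or 4, and the others did not pass. Without a scaling factor 11 genes of the list rose, and 3 rose without NF56 replicate 1 or 3.

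Vascular and matrix genes were more often lower. Shares lower were 20% of vascular and meningeal genes and 20.3% of matrix genes, against 7.96% of all models. Shares higher were 5% and 7.81%, against 6.51%. Of 40 tested genes of vascular and meningeal cells (of 54; 3 in shared models, 11 without a model), 8 fell and 2 rose, with a median of -0.42 (-0.03 on unscaled TPM). The endothelial cadherin gene cdh5 was at 2.9, 2.33 and 2.46 CPM at NF56 and 5.41, 5.26 and 4.84 CPM at NF50 (-1.01 ± 0.16), and the smooth muscle myosin light chain gene myl9 fell to 5.08 ± 0.607 CPM, against 10.6 ± 0.501 CPM at NF50 (-1.06 ± 0.15). For both genes the stages were apart. The endothelial name pecam1 sits on 3 models: the strongest rose (59.1 ± 4.15 and 40.6 ± 2.64 CPM, 0.54), another fell (-1.47 ± 0.35; lost without NF56 replicate 1 or 3 or NF50 replicate 4) and the third did not pass, so the direction of the gene is uncertain. The summed level of the vascular list was 765 to 798 CPM at NF56 and 806 to 818 CPM at NF50. Only 3 genes fell without NF56 replicate 1 or NF50 replicate 1 or 4, and 4 without NF56 replicate 2. Of 64 tested collagens, laminins and matrix genes 5 rose and 13 fell, with a median of -0.14 (0.15 on unscaled TPM). The link protein gene hapln3 (-1.36 ± 0.20), the crosslinking enzyme gene loxl2 (-0.97 ± 0.17) and the fibrillar collagen gene col5a2 (11 ± 1.62 and 20.4 ± 1.02 CPM, -0.89 ± 0.13) fell. Without NF56 replicate 1 or NF50 replicate 1 or 4, 7 or 8 of the matrix genes fell. Of 46 tested matrix proteases and inhibitors 8 rose and 1 fell, with a median of 0.02; adamts6 rose (16.2 ± 0.675 and 11.4 ± 0.981 CPM, 0.52 ± 0.09), and 3 to 5 rose with 1 library left out.

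**Figure D3:**
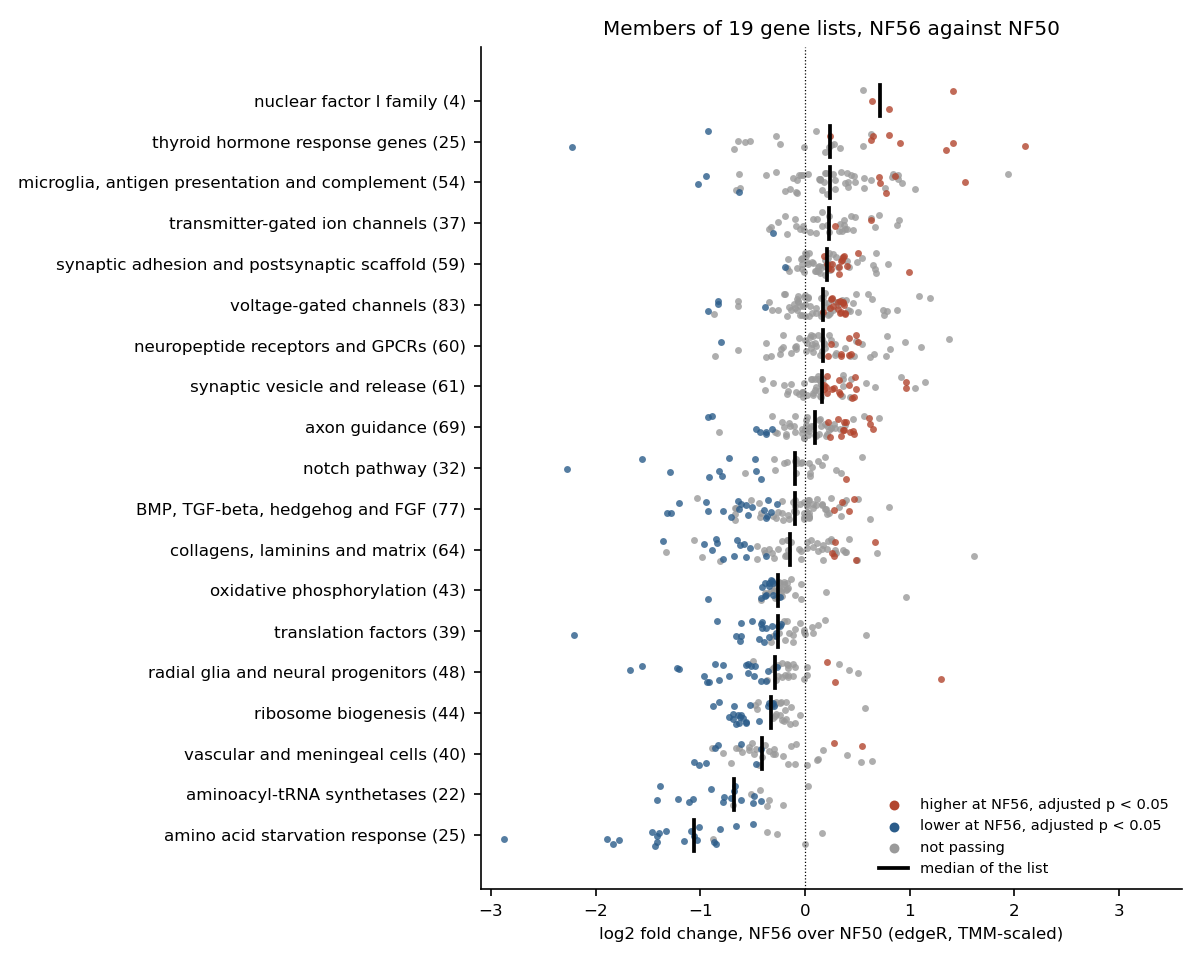
Log2 fold change of NF56 over NF50 (horizontal axis, TMM-scaled) of every tested member of 19 lists, with the number tested in brackets; red is higher and blue lower at NF56, grey did not pass, and bars are list medians from 0.72 for the nuclear factor I family to -1.06 for the amino acid starvation response. On unscaled TPM the medians of Notch, BMP to FGF, collagens, oxidative phosphorylation, translation factors, radial glia and ribosome biogenesis turned positive, while the median of all models was 0.32; with TPM rescaled without the 33 short models, the last 4 were again negative (-0.09, -0.09, -0.10 and -0.14).

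Markers of other cells that the dissection could hold were as follows, to be read against 6.51% higher and 7.96% lower of all models. Of 21 tested red blood cell genes 0 rose and 4 fell, with a median of -0.28 (0.06 on unscaled TPM), and their summed level was 519 to 532 CPM at NF56 and 564 to 573 CPM at NF50. Retina and pineal genes summed to 213 to 231 CPM at NF56 and 237 to 270 CPM at NF50. Of 31 tested, 1 was higher (3.23%) and 5 lower (16.1%), with a median of -0.48 (-0.09 on unscaled TPM). Of the retina and pineal genes 2 fell without NF56 replicate 1 or 2 or NF50 replicate 1 or 4. The photoreceptor and olfactory channel subunit gene cngb1 rose (0.57 ± 0.11), and the pigment cell gene pmel fell to 1.18 ± 0.267 CPM, against 3.93 ± 0.412 CPM at NF50 (-1.71 ± 0.24). A model named mlana, also of pigment cells, fell (-1.40 ± 0.30), while a stronger one that carries this name and another did not pass (-0.19). The falls of tyrp1 (-1.24 ± 0.32), pde6g (-0.88 ± 0.26) and rlbp1 (-0.84 ± 0.22), of pigment synthesis, phototransduction and the visual cycle, were each lost without NF56 replicate 1 or 2 or NF50 replicate 1 or 4. That of tyrp1 was lost also without NF56 replicate 3, and that of pde6g without NF50 replicate 3. Skeletal muscle genes summed to 347 to 434 CPM at NF56 and 262 to 316 CPM at NF50, with 2 of 22 higher and 3 lower. The calcium release channel gene ryr1 was at 17.2, 22.3 and 19.2 CPM at NF56 and 9.24, 8.26 and 9.48 CPM at NF50 (1.12 ± 0.11), while the muscle regulator myog averaged 0.722 and 0.497 CPM. The 3 falls were those of the contractile genes mylpf (-0.95 ± 0.21; lost without NF56 replicate 2 or NF50 replicate 4) and myl1 (-1.14 ± 0.32) and of the calcium pump gene atp2a1 (-0.94 ± 0.27), with both of the last calls lost without any 1 library. These 3 genes averaged 1.52, 1.14 and 0.851 CPM at NF56 and 2.95, 2.52 and 1.65 CPM at NF50. Pituitary genes summed to 159 to 164 CPM at NF56 and 159 to 225 CPM at NF50, with 0 of 14 higher and 1 lower (7.14% called, against 14.5% of all models). Choroid plexus, ependyma and cilia genes summed to 897 to 958 CPM at NF56 and 956 to 1034 CPM at NF50, with 5 of 61 higher and 5 lower (16.4% called, near the share of all models). The ciliary gene cfap70 (0.73 ± 0.11) and the growth factor gene igf2 (0.66 ± 0.14) rose, and the roof plate gene msx1 (-1.45 ± 0.31) lost its call without NF56 replicate 1. Of 27 tested oligodendrocyte and myelin genes 4 rose and 1 fell (14.8% and 3.7%), with a median of 0.07. The gene mbp, of a major myelin protein, was at 556, 565 and 545 CPM at NF56 and 525, 545 and 487 CPM at NF50. It did not pass (0.10 ± 0.08, adjusted p = 0.48). The part of such cells in the differences above was not tested.

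Chromatin genes fell more often than they rose, with 5.15% higher and 16.9% lower, against 6.51% and 7.96% of all models. Of 136 tested (of 163; 1 under the filter, 6 in shared models, 20 without a model), 23 fell and 7 rose, with a median of -0.04 (0.04 without a scaling factor and 0.31 on unscaled TPM). The de novo DNA methyltransferase gene dnmt3a was at 548, 500 and 481 CPM at NF56 and 370.4, 375 and 366 CPM at NF50, separate groups with a rise of 0.46 ± 0.06 (adjusted p = 0.00083); a second, weak model of that name did not pass. The maintenance methylation gene uhrf1, which is also a replication gene, was at 13.1, 15.4 and 12.4 CPM at NF56 and 41.8, 38.6 and 45.1 CPM at NF50 (-1.62 ± 0.15). The linker histone gene h1fx fell by 0.86 ± 0.11. Named after their values were seen, the chromatin remodeller genes chd3 (0.38 ± 0.04) and chd7 (-0.55 ± 0.06), the Polycomb methyltransferase gene ezh2 (-0.52 ± 0.10) and the deacetylase gene hdac1 (-0.49 ± 0.10) changed. Among 57 tested splicing factors 5 rose and 12 fell (8.77% and 21.1%), with a median of -0.05 (0.03 without a scaling factor and 0.32 on unscaled TPM). The repressor of neuronal exons ptbp1 was at 52.7, 52.4 and 43.5 CPM at NF56 and 78.1, 68.8 and 80.1 CPM at NF50 (-0.61 ± 0.11), and the neuronal splicing factor gene celf5, named after its value was seen, rose (257 ± 5.17 and 201.5 ± 2.61 CPM, 0.35 ± 0.06). The core small nuclear ribonucleoprotein gene snrpg fell by 0.62 ± 0.12. Leaving out 1 library, 13 to 19 chromatin genes and 5 to 11 splicing factors fell, fewest without NF50 replicate 1 for both lists, and 1 to 3 splicing factors rose.

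Clock, stress hormone, growth and death genes were called in both directions. The share called was 23.5% of clock, 26.3% of glucocorticoid and 23.7% of apoptosis genes, against 14.5% of all models. It was 17.9% of insulin, IGF and TOR genes, near that background, and 9.09% of immediate early genes, below it. Of 17 tested clock genes 3 fell and 1 rose, with a median of -0.04 (0.05 without a scaling factor and 0.34 on unscaled TPM). The repressor genes per2 (17 ± 1.4 and 25.4 ± 2.58 CPM, -0.58 ± 0.12) and cry1 (139 ± 9.69 and 198 ± 19.7 CPM, -0.51 ± 0.11) fell together with the output gene tef (-0.35 ± 0.06; 0.04 on unscaled TPM), and the hour of sampling is not stated. Of 19 tested glucocorticoid receptor and response genes 2 rose and 3 fell, with a median of -0.28 (0.10 on unscaled TPM). The mineralocorticoid receptor gene nr3c2 (0.57 ± 0.14) lost its call without NF56 replicate 3 or NF50 replicate 1 or 4, and without NF56 replicate 1 or 2 or NF50 replicate 1 none of the 3 falls was called. Of 39 tested insulin, IGF and TOR genes 4 rose and 3 fell, with a median of -0.01 (0.08 without a scaling factor and 0.31 on unscaled TPM), among them the forkhead gene foxo6 (0.58 ± 0.12). Of 33 tested immediate early genes 1 rose and 2 fell, with a median of -0.36 (0.05 on unscaled TPM and -0.09 without NF50 replicate 1). The Hippo target gene ctgf was at 16, 16.6 and 20.4 CPM at NF56 and 41.4, 30.8 and 29.1 CPM at NF50 (-0.94 ± 0.18), and bdnf, of a neurotrophin, fell by 0.40 ± 0.08. Of 38 tested apoptosis genes 3 rose and 6 fell, with a median of -0.12 (0.21 on unscaled TPM). The death receptor gene eda2r, a p53 target in mammals, was at 1.06, 0.729 and 0.795 CPM at NF56 and 5.91, 17.2 and 4.94 CPM at NF50, with NF50 replicate 3 far above the rest. Its log2 fold change was -3.42 ± 0.51, and -2.65 without that library.

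Several of the largest differences lie outside the lists. Among rises, nacc1, of a transcriptional regulator with a BTB domain, was at 96.4, 91.7 and 91.1 CPM at NF56 and 44.4, 51.5 and 51.5 CPM at NF50 (0.92 ± 0.07, adjusted p = 7.3e-05). The cold-sensing channel gene trpm8 was at 5.6, 6.56 and 5.32 CPM at NF56 and 2.23, 2.61 and 2.88 CPM at NF50 (1.18 ± 0.18), and a second model of that name also rose, by 0.89. The liprin gene ppfibp2 (16.2 ± 1.11 and 7.73 ± 0.359 CPM, 1.07 ± 0.12), n4bp2l1 (1.29 ± 0.14) and syt15 (1.12 ± 0.18), of the synaptotagmin family, rose. A second, weaker model named syt15 did not pass (0.02). For pla2r1, of a phospholipase receptor, a model at 10.7 ± 0.447 and 4.78 ± 0.555 CPM rose (1.16 ± 0.13), but a stronger model of that name did not pass (-0.26). The rise of zbtb7c (1.31 ± 0.30) was lost without NF56 replicate 1 or NF50 replicate 1 or 4.

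Among falls, the secreted phospholipase gene pla2g2e was at 36.3, 21.5 and 18 CPM at NF56 and 102, 58.9 and 122 CPM at NF50 (-1.89 ± 0.29), and averaged 1.75 and 0.751 CPM at NF62 and NF66. Both stages were spread. Separate stages were a condition for choosing the largest rises and falls, so the separation of such genes is no added support for them. The small nucleolar RNA gene snord89 was at 10.6, 12.2 and 7.31 CPM at NF56 and 44.4, 33.4 and 45.6 CPM at NF50 (-2.02 ± 0.21). The reductase gene ptgr1.1, whose enzyme inactivates prostaglandins, was at 11.9, 12 and 12.7 CPM at NF56 and 33.5, 38.7 and 35.2 CPM at NF50 (-1.56 ± 0.11, adjusted p = 6.5e-05). The secreted glycoprotein gene stc2, a member of the amino acid response list, fell by 1.46 ± 0.22. The fall of ociad2 (-1.74 ± 0.40) was -0.99 without NF50 replicate 3, whose level of 63.1 CPM compares with 21.4 and 19.5 CPM in the other NF50 libraries, and its call was lost without NF56 replicate 1 or 2. Both models named rrm2.1, of the ribonucleotide reductase subunit that supplies DNA precursors, fell (-2.59 ± 0.50 and -1.82 ± 0.18); the gene belongs with division although the list of division genes did not hold that symbol. A minor model named cadm4, of a cell adhesion protein, was at 0.368, 0 and 0 CPM at NF56 and 17.2, 56.8 and 13.5 CPM at NF50, and listed at 0 in all NF62 and NF66 libraries. The main cadm4 model was at 517, 539 and 513 CPM at NF56 and 416, 365 and 410.3 CPM at NF50 and rose by 0.40. The fitted value of the minor model depends on the prior count and is not given.

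**Figure D4:**
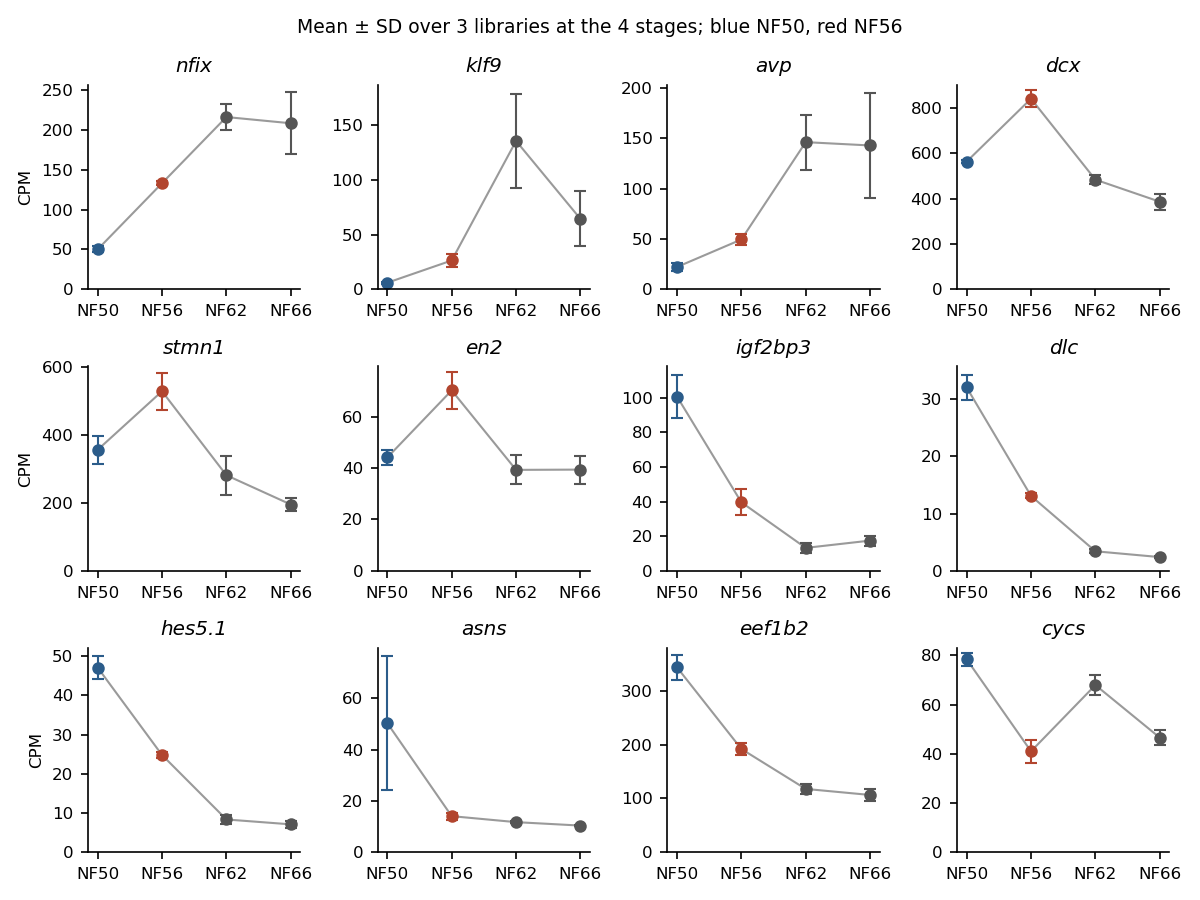
Mean CPM ± SD (n = 3 libraries per stage, vertical axes from 0) of 12 genes at NF50 (blue), NF56 (red), NF62 and NF66 (grey). At NF50, NF56, NF62 and NF66 dcx averaged 562, 839, 483 and 386 CPM and dlc 32, 13.1, 3.43 and 2.41 CPM.

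Levels at the later stages place the step from NF50 to NF56 in the course of metamorphosis, as a description. Some genes that rose at NF56 had their highest mean there: dcx, and stmn1 with 355.5, 528, 281 and 195 CPM at NF50, NF56, NF62 and NF66, as well as en2 with 44.1, 70.2, 39.3 and 39.4 CPM. For others the NF56 mean was intermediate, as for klf9 with 6.11, 26.5, 136 and 64.5 CPM and avp with 22.3, 49.6, 146 and 143 CPM. Among genes that fell, hes5.1 averaged 47.1, 24.8, 8.4 and 7.15 CPM and eef1b2 343, 192, 118 and 106.5 CPM along the 4 stages. The amino acid gene asns was already near its later level at NF56, with 50.3, 14.1, 11.8 and 10.4 CPM. The cytochrome c gene cycs was lowest at NF56, with 78.4, 41.1, 68 and 46.6 CPM.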

How the data were processed

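RNA-seq libraries of 4 stages, 3 per stage, were used. For 33875 gene models the authors deposited expected counts made with RSEM, in a joint matrix and again, with equal values, in a table for each library. The deposited tables also give TPM, per the file headers; their use here is limited to alternatives. Per the submitters' processing notes, the tools included Bowtie, cutadapt, RSEM, DESeq2 and CASAVA 1.8.2. For the genome build, a name was not given in the sources used here. Names came from the deposited symbol and gene name columns: 13153 models had a name, and 389 carried more than 1 and were left out of the lists.

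Expected counts, 74.3% of them not whole, were rounded. The filter of filterByExpr, with a count of 10 and a total of 15, kept 19584 models and 99.93% of the counts. In edgeR 4.0.16 (R 4.3.3), all 12 libraries entered 1 quasi-likelihood fit with TMM factors and a term for each stage, so that the stages shared the estimate of spread; p-values were adjusted over all models at 0.05. The biological coefficient of variation was 18.3%. Where a symbol had several models, lists took the one with the highest mean among those with only that name. Per-sample columns of unknown sample numbered 0. The fit was also run on simulated counts drawn independently for each gene and library, with an outcome not given here. That run does not speak to differences shared by many genes of a library.

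The comparison, the 48 gene lists and the named genes were chosen with earlier results of these data known. Named genes are a list of key genes, up to 4 called members per list with the largest absolute log2 fold change and an average log2 CPM of at least 1, and the 20 largest rises and falls outside cell division and ribosomal proteins with separate groups and at least 5 CPM in the higher stage. Some genes are not reported here. The text describes mainly those whose calls held; slc7a8, plxna1, rhebl1, dner, fgfr1 and marker genes given by level were, like those so marked in the text, chosen after their values were seen. Alternatives were DESeq2 1.42.0, limma 3.58.1 on deposited TPM as log2(TPM + 1) and log2(TPM + 0.1), other scalings and filters, the replicate number as a block, and each library left out.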

Additional observations from a re-analysis of the deposited data

How the results depend on the processing

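Of 186 named genes past the threshold, 115 kept the call in all 6 fits without 1 library and 71 lost it in at least 1; none changed sign there. With 1 library left out, 641 to 935 models were higher and 893 to 1449 lower over all models, and 638 to 931 and 714 to 1237 outside cell division and ribosomal proteins. Size factors, no scaling factor, scaling without division and ribosomal models, the filters, DESeq2 and the 6 libraries alone gave counts within 1.5 times. On unscaled log2(TPM + 1), 333 were higher and 122 lower (331 and 69 outside). On log2(TPM + 0.1), 264 were higher and 52 lower (263 and 32 outside). Among the calls lost in both were those of thrb, asns, psph, slc7a3, tars, mars, dlc, hes5.1 and cycs. Those of klf9, crym, nfia, nfic, nfix and avp held in both. There 10 genes that fell were positive on log2(TPM + 1) and log2(TPM + 0.1): tef (0.04 and 0.04), esrra (0.07 and 0.07), hyou1 (0.01 and 0.01), psmd13 (0.00 and 0.00), psme4 (0.09 and 0.10), psma4 (0.12 and 0.12), psmc3 (0.15 and 0.15), hadha (0.07 and 0.07), chrna2 (0.07 and 0.07) and cacng7 (0.01 and 0.01). In an alternative chosen after seeing the data, TPM was rescaled without the 33 short models of NF50 replicate 4: 2246 were higher and 861 lower (2240 and 665 outside), the median of all models was 0.148 in place of 0.320, and none of the 10 was positive. Dropping those models from the edgeR fit gave 1288 and 1609. With the replicate number as a replicate block, 2554 were higher and 2889 lower (2547 and 2641 outside). No other library has the number 4, so the block gives NF50 replicate 4 a term of its own. That library then adds nothing to the contrast. Deviations from the stage means correlated at 0.03 (replicate 1) and 0.45 (replicate 3) between same-numbered NF56 and NF50 libraries. Over the other stage pairs they correlated at -0.18 to 0.09 for replicate 1, 0.52 to 0.64 for replicate 2 and 0.47 to 0.59 for replicate 3. Differently numbered libraries ranged from -0.73 (NF62 replicate 2 and NF66 replicate 3) to 0.56 (NF62 replicate 1 and NF66 replicate 3). Replicate 2 against replicate 3 of another stage correlated at -0.73 to -0.47. The labels name neither a batch nor a pairing, and the numbers were not taken as pairs. NF50 holds replicates 1, 3 and 4 and NF56 holds 1, 2 and 3, so a batch shared by number would be unbalanced between the stages. Its part was not tested beyond the replicate block, which cannot test a batch tied to replicate 4.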
